A study of Mus musculus with 18 samples.

Results

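XCT790 and compound A, both described as inhibitors of the nuclear receptor ERRα, were compared with each other in activated wild-type CD4+ T cells. The comparison holds 3 arrays labelled as treated with XCT790 and 3 labelled as treated with compound A, out of 18 arrays in the series, and the arrays were chosen by their titles. In the order used below, the groups were XCT790 (wild-type cells, 20 µM), compound A (wild-type cells, 20 µM), ERRα-/- stimulated, wild-type stimulated and wild-type resting, with 3 arrays each. The remaining 3 arrays, ERRα-/- resting, served only to choose the activation genes described below. All mice were 6 to 8 weeks old, the T cells were purified by negative selection, and stimulation used 10 µg of antibodies against CD3 and CD28 for 12 h. Resting cells were harvested directly from the mouse. The series design describes 3 independent biological replicates per assay, without saying whether cells of several mice were pooled. The 2 compounds make 1 pair at 1 matched dose and 1 matched time, so no dose response can be given, and compound A is known here only by its code. Each value is a log2 signal of a probe set, a group of short oligonucleotides on the Affymetrix Mouse Genome 430A 2.0 array. All probe sets that name a single gene and read log2 4 or more on 3 or more of the 18 arrays were tested, which gave 10691 probe sets and 6873 genes. Differences are XCT790 minus compound A on the log2 scale, and a gene passed when its adjusted p was under 0.05.

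ERRα, encoded by Esrra, is an orphan nuclear receptor that works with PGC-1 coactivators on promoters of genes for mitochondrial respiration and fatty acid oxidation. XCT790 is an inverse agonist of this receptor. Activated T cells raise glucose uptake, glycolysis, amino acid transport, protein synthesis and cytokine production. Hypoxia-inducible factor (HIF) drives glycolytic genes when oxygen or its sensing falls. The integrated stress response, run by the transcription factor ATF4, raises amino acid transport and synthesis. Interferon gamma made by T helper 1 (Th1) cells raises interferon-stimulated genes, in T cells as well as in other cells.

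The stimulation field in the labels of all 6 arrays of the 2 compounds reads as unstimulated, whereas the protocol places both compounds in the 12 h stimulation. An activation score was therefore read per array, as the mean of 271 genes minus the mean of 469, which were at least 4-fold higher and at least 4-fold lower, in that order, in ERRα-/- stimulated than in ERRα-/- resting arrays. It was 2.38, 2.61 and 2.62 with XCT790 and 2.88, 2.86 and 2.85 with compound A, against 3.68, 3.64 and 3.71 in wild-type stimulated and -2.54, -2.12 and -2.15 in wild-type resting cells. Both compounds thus lay on the stimulated side, at means of 80.9% and 86.3% of the span. The spike-in dap 5' probe set averaged 8.29 with XCT790 and 7.93 with compound A, and 5.15 in wild-type stimulated and 5.07 in wild-type resting cells. The 2 compounds thus lie together on one side of this technical split and wild-type cells without compound, stimulated or resting, on the other. Setting the compounds beside either of these, in the score above too, crosses the split. Other controls moved with the compounds. The 18S rRNA probe set read 12.21, 12.09 and 11.73 with XCT790, against 11.15, 9.73 and 9.87 with compound A. The 3' minus 5' signal of actin, a sign of RNA integrity and labelling, was 0.72, 0.69 and 0.80 with XCT790, against 0.42, 0.50 and 0.53 with compound A, while that of Gapdh averaged 0.0046 and -0.0488. Fits with 18S rRNA or with actin 3' minus 5' as a covariate, called the 18S fit and the actin fit, are given beside the gene groups below. Both controls were higher on every XCT790 array than on any other array of the series, so these fits cannot fully tell compound and control apart. A call that ended in such a fit may reflect a wider error or a smaller difference, which was not tested. Summed markers of other cell types overlapped between the compounds, except for those of neutrophils and of CD8 T and NK cells. Of 15 macrophage markers 12 read under log2 4 on all arrays of both, with summed levels of 36.5 to 41.3 with XCT790 and 37.2 to 44.3 with compound A. All 12 erythroid markers were under log2 4, with sums of 27.2 to 27.9 and 27.1 to 28.6. B cell markers summed to 59.6 to 62.6 and 61.3 to 64.9, with Pax5, Cd22, Cr2 and Ebf1 under log2 4, and neutrophil markers to 24.3 to 29.2 and 22.1 to 24.3, with S100a8 and S100a9 above it on some arrays. Dendritic cell markers summed to 57.8 to 59.9 and 58.2 to 61.3, CD8 T and NK markers to 20.2 to 23.0 and 23.9 to 24.7 and platelet markers to 16.7 to 18.7 and 16.9 to 18.9. Of the 6 CD8 T and NK markers, Cd8a, Ncr1, Klra1 and Klra8 read under log2 4 on all arrays of both compounds. Only Eomes among the 3 tested passed, downward, and it is also in the T helper list below. All 9 T cell identity genes were above log2 4 in both groups. The part of these controls and markers in the results was not tested beyond the fits named.

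The 2 compounds left very different transcriptomes. Arrays of different compounds differed by a mean of 0.420 to 0.622 log2 units per probe set, against 0.164 to 0.311 between XCT790 arrays and 0.121 to 0.210 between compound A arrays. Of 6873 genes, 1686 (24.5%) rose and 1899 (27.6%) fell with XCT790 relative to compound A, 52.2% in all. Most of these differences were small. At least 2-fold, 311 genes (4.52%) rose and 453 (6.59%) fell, or 11.1% together, and 71 and 67 passed 4-fold. The median difference over all genes was -0.01 and the median size 0.35. In 63.5% of genes the 3 arrays of one compound lay entirely above the 3 of the other, so a lack of overlap says little on its own here. Most list members named below were chosen by smallest adjusted p, so their lack of overlap was largely set by that choice. With 18S rRNA as a covariate 2238 genes passed (996 up, 1242 down), and with actin 3' minus 5' as a covariate 1305 (668 up, 637 down). Calls were thus lost over all 6873 genes in both fits, and these counts are the background for the list counts in the 18S fit and the actin fit below. Because these were bulk samples, fewer cells of a type and less RNA per cell cannot be told apart.

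**Figure D1:**
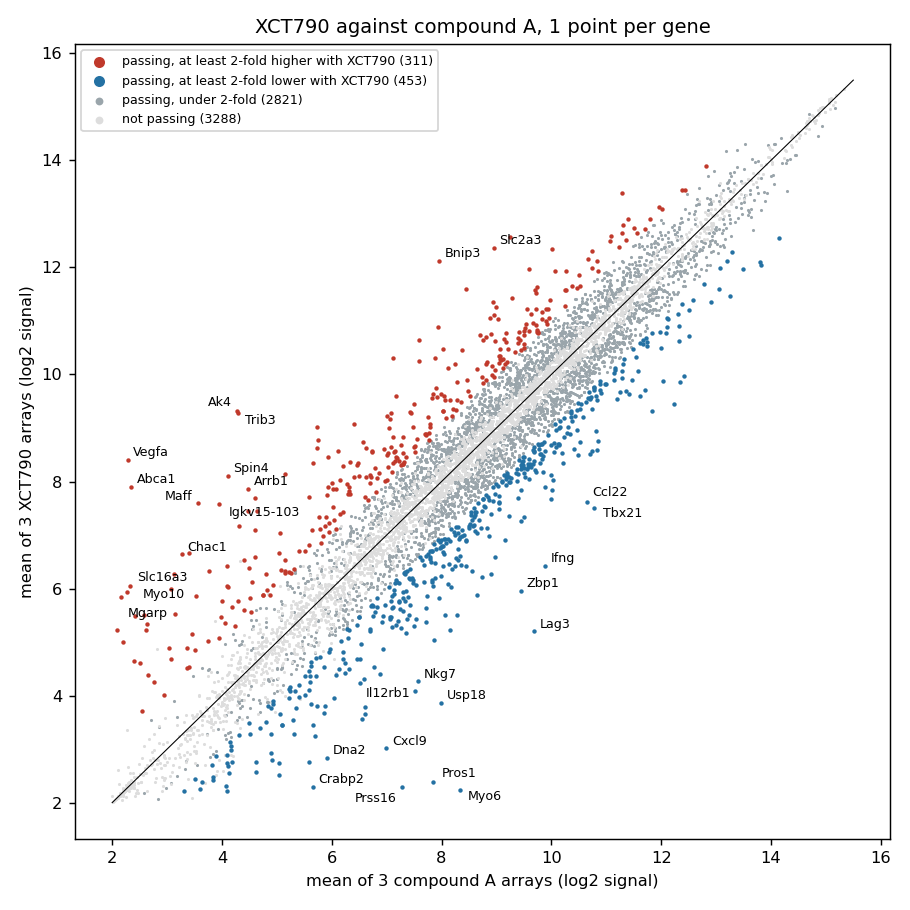
Mean log2 signal of 3 XCT790 arrays (vertical axis) against that of 3 compound A arrays (horizontal axis), 1 point per gene for 6873 genes, with the line of equal signal. Red points mark the 311 genes that passed and were at least 2-fold higher with XCT790, blue points the 453 that were at least 2-fold lower, and names mark the 14 largest rises and the 14 largest falls.

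The 14 largest rises with XCT790 were genes of several roles, among them Vegfa, Bnip3 and Slc2a3 of the HIF list, Trib3 and Chac1 of the ATF4 list and Abca1 of the LXR list. Vegfa, an angiogenic growth factor and HIF target, read 8.13, 8.61 and 8.46 with XCT790, against 2.23, 2.34 and 2.28 with compound A. It was detected with XCT790 alone among the stimulated groups, and the difference of 6.12 ± 0.09 (SE) meant at least 21.2-fold more signal (adjusted p = 7.10e-16). Here and below a fold is given as "at least" where all 3 arrays of the lower group were under log2 4, which then serves as the floor. Where only some arrays of the lower group were under log2 4, those were set to 4 for the fold, which is then smaller than the log2 difference would give. Abca1, the cholesterol exporter, read 7.86, 7.96 and 7.87 with XCT790, against 2.67, 2.18 and 2.18 with compound A, at least 14.9-fold more. Ak4, a mitochondrial adenylate kinase, read 8.83, 9.51 and 9.61, against 4.29, 4.48 and 4.06, a 32.9-fold rise (adjusted p = 2.87e-09). Trib3, a pseudokinase induced by ATF4, read 9.24, 9.34 and 9.25 with XCT790 and 3.11, 4.94 and 4.83 with compound A. In all 4 genes the groups were far apart, and in Trib3 compound A array 1 lay lowest, the difference being 4.99 with it and 4.40 without it. Bnip3, a mitochondrial protein of mitophagy, read 11.97, 12.18 and 12.24 with XCT790, against 7.61, 8.08 and 8.17 with compound A, and rose 18.1-fold (adjusted p = 1.03e-07). Slc16a3, the lactate exporter MCT4, rose at least 4.13-fold, and Slc2a3, the glucose transporter GLUT3, 10.6-fold. The small Maf factor gene Maff rose at least 12.0-fold, and Chac1, which breaks down glutathione and is an ATF4 target, at least 6.23-fold. Genes of other roles were among the 14 as well. The filopodial myosin gene Myo10 rose at least 3.82-fold, Mgarp, of a mitochondrial protein, at least 3.60-fold, and Arrb1, β-arrestin 1, 10.4-fold.

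The other 2 of the 14 rises were less even. Spin4, of the spindlin family of histone readers, read 9.05, 7.68 and 7.58 with XCT790 and 6.13, 3.17 and 3.01 with compound A. The number 1 arrays were the highest of each group, the difference was 5.01 without compound A array 1, larger than with all arrays (95% interval 2.53 to 5.47), and the call ended with 18S rRNA as a covariate (2.48, adjusted p = 0.0730). Igkv15-103, an immunoglobulin κ variable segment, read 8.49, 6.49 and 7.78 with XCT790, against 4.41, 3.79 and 3.66 with compound A. The 14 were chosen among genes without overlap, so its lack of overlap cannot be set against the summed B cell markers, which overlapped. Igkv15-103 missed the threshold with actin 3' minus 5' as a covariate (3.89, adjusted p = 0.0567).

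The 14 largest falls were of several roles too, among them the Th1 genes Ifng and Tbx21. Myo6, a myosin that moves toward the minus end of actin, read 2.15, 2.29 and 2.29 with XCT790, against 7.99, 8.54 and 8.51 with compound A, at least 20.3-fold less (adjusted p = 9.35e-10). Pros1, encoding protein S, an anticoagulant and ligand of TAM receptors, read 2.15, 2.84 and 2.15, against 8.06, 7.81 and 7.67, at least 14.4-fold less. Both genes were below log2 4 on every XCT790 array and well above it on every compound A array. Ifng, encoding interferon gamma, read 6.80, 5.97 and 6.51 with XCT790, against 10.00, 9.29 and 10.39 with compound A, and fell by 3.46 ± 0.34 (SE) on the log2 scale (adjusted p = 1.64e-06). Tbx21, encoding T-bet, the factor that directs Th1 cells, read 7.03, 7.81 and 7.68, against 10.65, 10.62 and 11.07, and fell 9.65-fold. Il12rb1, a receptor chain shared by IL-12 and IL-23, read 4.07, 4.07 and 4.10, against 8.41, 6.95 and 7.21. It fell 10.9-fold, though not past the threshold with actin 3' minus 5' as a covariate (-1.50, adjusted p = 0.127). Lag3, an inhibitory receptor for MHC class II, was uneven with XCT790, at 3.42, 6.60 and 5.59, against 9.60, 9.69 and 9.78 with compound A. It fell 19.6-fold, with a log2 difference of -4.49 that was -3.60 without XCT790 array 1 and -5.19 without array 2.

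Interferon-linked genes, chemokines and genes of other roles made up the rest of the 14. Usp18, which removes ISG15 and limits interferon signalling, fell 15.4-fold, and Zbp1, an interferon-induced nucleic acid sensor, 11.3-fold. The interferon-induced chemokine Cxcl9 fell at least 7.98-fold. Ccl22, a ligand of CCR4, read 6.17, 8.19 and 8.52 with XCT790, against 11.15, 10.25 and 10.54 with compound A. XCT790 array 1 lay lowest, and the difference of -3.02 was -2.30 without it. Nkg7, of cytotoxic granules, fell 9.63-fold, and Prss16, a serine protease known from the thymus, at least 9.67-fold. Crabp2, a retinoic acid carrier, fell at least 3.17-fold, and Dna2, a nuclease of DNA replication and repair, at least 3.78-fold.

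**Figure D2:**
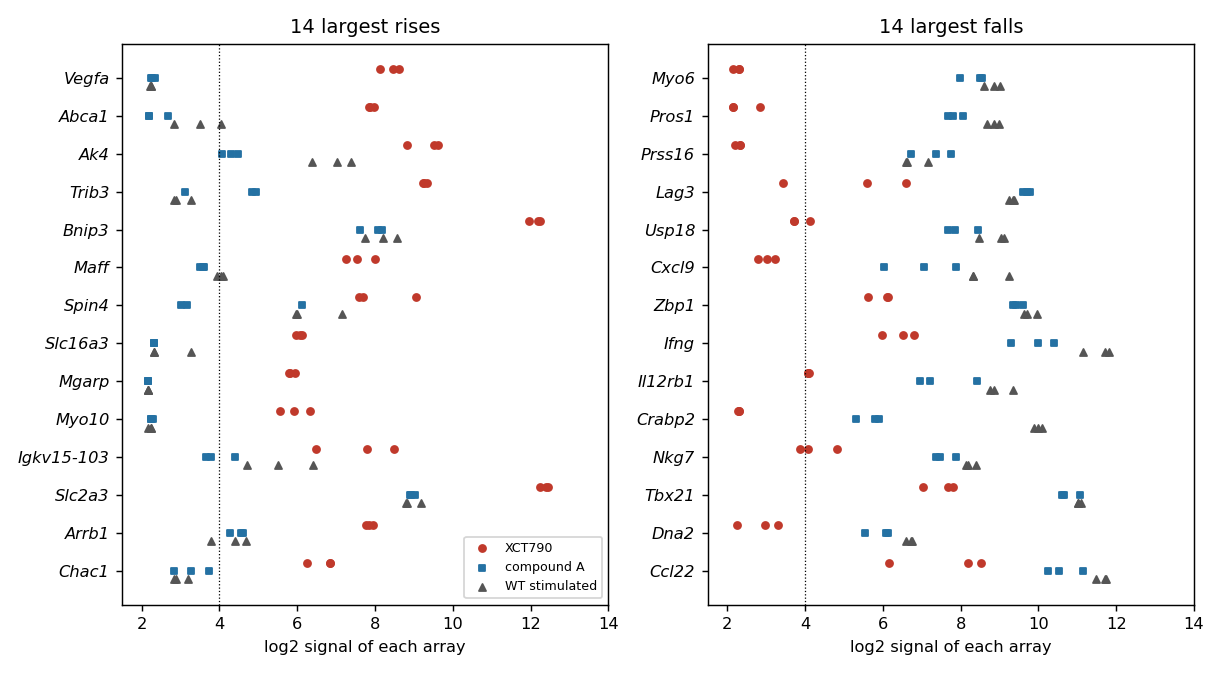
Log2 signal of each array for the 14 largest rises (left) and the 14 largest falls (right) with XCT790 relative to compound A, with circles for XCT790, squares for compound A, triangles for wild-type stimulated cells and a dotted line at log2 4. Vegfa stands at 8.13 to 8.61 with XCT790 and at 2.23 to 2.34 with compound A, and the compound A arrays lie nearer to wild-type stimulated cells in most genes, the exceptions being Ak4 and Spin4.

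Of the 20 tested HIF targets, 18 (90.0%) rose and the other 2 did not pass, with a median difference of 1.98. Over all genes the shares were 24.5% up and 27.6% down and the median -0.01. Ndrg1, a gene raised by hypoxia, read 10.97, 10.73 and 10.96 with XCT790, against 7.71, 8.00 and 8.08 with compound A. Ero1a, an oxidase of protein folding in the endoplasmic reticulum, read 11.27, 11.15 and 11.24, against 9.50, 9.56 and 9.63. The groups were far apart in both, at 7.77-fold (adjusted p = 3.10e-11) and 3.15-fold (adjusted p = 1.01e-09), and 5 of 5 tested probe sets of Ndrg1 passed upward. Hif1a itself, the oxygen-regulated subunit, differed by 0.26 (adjusted p = 0.0813) and Pfkfb3 by 0.38 (adjusted p = 0.126). Among the smaller rises was Ldha, lactate dehydrogenase A, at 0.52 (these 3 were named after their values were seen). The count was 17 with 18S rRNA and 16 with actin 3' minus 5' as a covariate.

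Promoters of this list carried the core of the hypoxia response element often. In the 250 bases before the RefSeq start (GRCm38.p6), ACGTG or GCGTG occurred on either strand in 16 of 18 members with a sequence (88.9%). The share was 38.6% of 27025 genes, whether tested here or not. Matches on one strand can share the G at their ends, and a palindrome CACGTG holds ACGTG on both strands and counts on each. The 200 bases before the start of Bnip3 and Slc2a1 are shown because these genes stood out for the size of the rise and for glucose entry, with matches in capitals on the gene's strand. Bnip3 holds 5 matches and Slc2a1 2. A match describes letters and says nothing about binding.
Bnip3, chr7:138909507-138909706, minus strand: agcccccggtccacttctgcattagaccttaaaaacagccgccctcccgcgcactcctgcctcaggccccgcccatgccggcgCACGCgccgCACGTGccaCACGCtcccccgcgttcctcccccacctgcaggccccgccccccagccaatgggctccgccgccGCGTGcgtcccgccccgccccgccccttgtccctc
Slc2a1, chr4:119108545-119108744, plus strand: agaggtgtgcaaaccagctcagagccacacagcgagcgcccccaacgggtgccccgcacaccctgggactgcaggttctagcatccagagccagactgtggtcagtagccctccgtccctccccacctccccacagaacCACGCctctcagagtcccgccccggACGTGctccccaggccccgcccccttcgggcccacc

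Glycolysis genes mostly rose as well, and the list shares members with the HIF list, Slc2a1 and Slc2a3 among them. Of 18 tested genes 13 rose, 2 fell and 3 did not pass, with a median of 0.93. Slc2a1, the glucose transporter GLUT1, read 12.02, 11.80 and 12.08 with XCT790, against 9.59, 9.59 and 9.59 with compound A, and rose 5.18-fold (adjusted p = 5.36e-08) in 3 of 3 probe sets. Pfkl, the liver-type phosphofructokinase, read 10.51, 10.78 and 10.97, against 8.79, 8.96 and 8.96, a 3.60-fold rise. Compound A arrays lay below every XCT790 array in both genes. The 2 falls were Eno3 (-1.71, adjusted p = 4.68e-05) and Pfkm (-0.88, adjusted p = 0.0478), muscle-type forms of enolase and phosphofructokinase that were named after their values were seen. The list held 1 fall in place of 2 when any 1 of the 6 arrays was left out. The 18S fit held 12 rises and 1 fall, and the actin fit 11 and 2. The pentose phosphate pathway, which makes NADPH and ribose, went the other way in 4 of 6 genes, and the other 2 did not pass. Its transaldolase Taldo1 read 9.74, 9.79 and 9.70 with XCT790, against 10.74, 10.78 and 10.80 with compound A, and fell 2.04-fold. Pgls, Tkt and Pgd fell 1.71-fold, 1.61-fold and 1.33-fold, the last 2 losing their call in the 18S fit (adjusted p = 0.102 and 0.212), which held 2 falls in the list. Pgd also lost it in the actin fit (adjusted p = 0.190), which held 3 falls, and without XCT790 array 1, compound A array 1 or compound A array 3. A fit of the 2 compounds alone did not call Pgd either (adjusted p = 0.104).

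The integrated stress response rose almost as a whole. Of 27 tested members of the ATF4 list, 25 (92.6%) rose, 1 fell and 1 did not pass, with a median of 1.81. Sesn2, a sestrin that restrains mTORC1, read 8.36, 8.52 and 8.86 with XCT790, against 6.08, 6.13 and 6.14 with compound A. Cebpg, a partner of ATF4 on DNA, read 10.31, 10.24 and 10.03, against 8.31, 8.13 and 8.30. Slc7a3, a cationic amino acid transporter, read 5.74, 5.84 and 4.89, against 2.28, 2.69 and 2.29. None of the 3 genes overlapped between the compounds, with rises of 5.50-fold (adjusted p = 8.25e-10), 3.85-fold (adjusted p = 1.31e-08) and at least 2.82-fold (adjusted p = 1.41e-08). The fall was Wars, tryptophanyl-tRNA synthetase, which also answers to interferon gamma. It read 8.54, 8.77 and 8.77 with XCT790, against 10.07, 10.10 and 10.25 with compound A, and fell 2.73-fold in 4 of 4 probe sets. Atf4 itself rose by 1.17, and Sqstm1 differed by 0.24 (adjusted p = 0.131), both named after their values were seen. With 18S rRNA as a covariate 23 members rose, and with actin 3' minus 5' 15.

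The core of the C/EBP-ATF element, TGATGNAA on either strand, occurred within 250 bases before the start of 7 of 21 members with a sequence (33.3%), against 3.53% of all 27025 genes. Chac1, one of the largest rises, holds 1 match, on the strand opposite to the gene, and its 200 bases are shown with the match in capitals as it reads on the gene's strand.
Chac1, chr2:119351042-119351241, plus strand: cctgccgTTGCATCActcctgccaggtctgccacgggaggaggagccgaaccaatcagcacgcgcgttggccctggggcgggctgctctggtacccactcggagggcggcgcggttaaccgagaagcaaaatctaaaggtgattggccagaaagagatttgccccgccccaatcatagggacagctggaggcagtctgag

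Genes that feed on or work beside this response moved in part. Of 11 amino acid transport genes 6 rose, 1 fell and 4 did not pass, with a median of 0.40. Slc1a4, a neutral amino acid carrier, read 7.81, 7.64 and 7.60 with XCT790, against 3.84, 5.04 and 4.95 with compound A, a rise of 8.11-fold. Slc3a2 and Slc7a5, which together form the large neutral amino acid transporter LAT1, rose 2.86-fold and 2.41-fold, and Slc38a2, a glutamine carrier, 2.35-fold. The fall was Bcat2 (-0.52), a mitochondrial aminotransferase of branched-chain amino acids, named after its value was seen. There were 4 rises and 1 fall in the 18S fit and 3 rises and 0 falls in the actin fit, where Slc1a4 missed the threshold (2.26, adjusted p = 0.0520). Of 7 serine and one-carbon genes 4 rose, led by the mitochondrial Mthfd2 (2.81-fold), and Mthfd1, of the cytosolic arm, fell by 0.67 on the log2 scale (named after its value was seen). The list held 0 falls without XCT790 array 1 or without any single compound A array. It held 3 rises and 0 falls in the 18S fit. In the actin fit 0 serine and one-carbon genes rose and 1 fell, Mthfd2 missed the threshold (1.27, adjusted p = 0.0502), and Psat1, of serine synthesis, turned to -0.12 (0.61 otherwise). Psat1 also missed the threshold in the 18S fit (0.80, adjusted p = 0.0829) and without XCT790 array 2, XCT790 array 3 or compound A array 1. Of 20 aminoacyl-tRNA synthetases 10 rose, 7 fell and 3 did not pass. Yars and Aars rose 2.74-fold and 2.41-fold, while Wars and Kars fell 2.73-fold and 1.76-fold. The 18S fit held 10 rises and 3 falls, and in the actin fit 0 of these synthetases rose and 5 fell.

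Sterol genes split into exporters that rose and synthesis enzymes that fell. Liver X receptors (LXR) raise sterol export when oxysterols are plentiful, while SREBP2 raises cholesterol synthesis when sterols are scarce. Of 9 LXR targets 6 rose, 1 fell and 2 did not pass, with a median of 1.14. Besides Abca1, the exporter Abcg1 read 8.86, 8.59 and 8.75 with XCT790, against 6.31, 6.65 and 6.72 with compound A, and Mylip, which degrades the LDL receptor, read 9.51, 9.01 and 9.15, against 7.22, 6.75 and 7.04. They rose 4.52-fold and 4.67-fold without overlap, and Srebf1, the SREBP1 gene, rose 1.69-fold. The fall was Lpcat3 (-0.60, adjusted p = 0.00467), a phospholipid acyltransferase named after its value was seen. Of 22 cholesterol synthesis and uptake genes 15 fell, 3 rose and 4 did not pass, with a median of -0.75. Pmvk, phosphomevalonate kinase, read 4.92, 5.73 and 5.51 with XCT790, against 7.15, 7.40 and 7.05 with compound A, and fell 3.50-fold (adjusted p = 1.53e-06). Dhcr7, which makes cholesterol from its last precursor, read 6.58, 7.31 and 6.88, against 8.51, 8.29 and 8.16, and fell 2.63-fold. Nsdhl and Ebp, later enzymes of the pathway, fell 2.08-fold and 1.63-fold. The 3 rises were Srebf1, Insig2 (0.91) and Scap (0.28), which regulate rather than form the pathway, Insig2 and Scap named after their values were seen. Srebf2 differed by -0.01 (adjusted p = 0.988). The core of the sterol regulatory element, TCACNCCAC on either strand, was rare in the 250 bases before the start. It occurred in 1 of 18 members of the cholesterol list with a sequence (5.56%), against 1.04% of 27025 genes. The counts of falls were 11 with 18S rRNA and 4 with actin 3' minus 5' as a covariate, and 4 LXR targets rose under either. In fatty acid synthesis 3 of 12 genes rose and 3 fell (25.0% each), near the 24.5% and 27.6% over all genes. Lpin1, a phosphatidate phosphatase, rose 3.59-fold, while Elovl1 and Acss2 fell 1.49-fold and 1.51-fold. The list held 1 rise and 2 falls in the 18S fit and 1 of each in the actin fit. Acss2 differed by -0.03 in the actin fit (adjusted p = 0.949) and missed the threshold in a fit of the 2 compounds alone (adjusted p = 0.0520).

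Transcripts of mitochondrial energy metabolism were lower with XCT790, in steps that were small and shared by most subunits. Of 33 complex I genes 29 (87.9%) fell and the other 4 did not pass, with a median of -0.60. All 16 ATP synthase genes fell (median -0.47), 20 of 24 genes of complexes II to IV fell and 1 rose (median -0.47), and 13 of 20 genes of the TCA cycle fell (median -0.31). The rise was Cox7a2l, an assembly factor of respiratory supercomplexes (0.66, adjusted p = 0.00174), named after its value was seen. Ndufa5, a complex I subunit, read 9.66, 9.86 and 9.64 with XCT790, against 10.73, 10.81 and 10.77 with compound A. Uqcr11, of complex III, read 9.82, 9.98 and 9.86, against 11.13, 11.13 and 11.14. Atp5l, of ATP synthase, read 11.76, 11.83 and 11.77, against 12.54, 12.62 and 12.64. Each of the 3 was lower on every XCT790 array, by 2.07-fold (adjusted p = 1.62e-07), 2.37-fold (adjusted p = 3.97e-07) and 1.75-fold (adjusted p = 1.18e-07). In the TCA cycle Idh2, the mitochondrial isocitrate dehydrogenase, read 5.73, 6.67 and 6.31 with XCT790, against 8.01, 7.91 and 8.05 with compound A, and fell 3.37-fold. Suclg1, of succinyl-CoA ligase, fell 2.34-fold, and the succinate dehydrogenase genes Sdhb and Sdhc 1.57-fold and 1.72-fold. The counts of falls with 18S rRNA and with actin 3' minus 5' as a covariate were 26 and 18 for complex I, 11 and 10 for ATP synthase, 16 and 15 for complexes II to IV, and 8 and 8 for the TCA cycle.

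Fatty acid oxidation and mitochondrial translation followed. Of 22 fatty acid oxidation genes 16 fell, 1 rose and 5 did not pass, with a median of -0.70. Hadh, a β-oxidation dehydrogenase, read 7.86, 8.87 and 8.32 with XCT790, against 10.36, 10.21 and 10.05 with compound A, and fell 3.61-fold. Acaa2, the last enzyme of the β-oxidation spiral, read 5.92, 6.51 and 6.07, against 7.98, 7.80 and 7.72, and fell 3.18-fold in 3 of 3 probe sets. Eci1 and Acat1 fell 3.01-fold and 2.18-fold. The rise was Acsl4 (0.84), which activates arachidonate, named after its value was seen. Of 69 mitochondrial ribosome genes 55 (79.7%) fell and the others did not pass, with a median of -0.59, Mrpl4 falling 2.79-fold and Mrpl17 2.06-fold. The counts of falls were 13 and 49 with 18S rRNA as a covariate and 9 and 23 with actin 3' minus 5'. Mitochondrial chaperones and proteases did not share this direction, since 6 of 18 rose (33.3%) and 5 fell (27.8%), against 24.5% and 27.6% over all genes. Lonp1, the matrix protease, read 10.62, 10.86 and 10.90 with XCT790, against 8.96, 9.71 and 9.55 with compound A, and rose 2.61-fold. Hspa9, the mitochondrial HSP70, rose 1.86-fold and Afg3l2, an inner membrane protease, 1.68-fold, while Grpel1, the nucleotide exchange factor of Hspa9, fell 1.47-fold. These 3 rises lost their calls in the actin fit (adjusted p = 0.0913, 0.0920 and 0.110), which held 0 rises and 3 falls, and the 18S fit held 3 of each.

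The transcript of the receptor itself did not pass between the compounds. Esrra read 5.06, 5.08 and 5.14 with XCT790, against 5.10, 5.10 and 5.12 with compound A. The groups overlapped, and the difference was -0.01 (95% interval -0.26 to 0.23, adjusted p = 0.955). Of 27 genes of a list of mitochondrial genes linked to ERRα elsewhere, 19 fell, 1 rose and 7 did not pass, with a median of -0.34. That list shares members with the mitochondrial lists above, so it is not a separate set of genes. Fh1, fumarase, fell 2.02-fold and Ndufa9, of complex I, 1.59-fold, and the rise was Tfb2m (0.47), a mitochondrial transcription factor named after its value was seen. Counts for this list were 13 falls in the 18S fit and 12 in the actin fit, with 0 rises in either. The fatty acid oxidation genes often used as ERRα readouts were less uniform. Acadm, medium-chain acyl-CoA dehydrogenase, read 9.56, 10.23 and 9.98 with XCT790, against 10.35, 10.26 and 10.31 with compound A. XCT790 array 1 lay lowest, and the fall of 1.30-fold (adjusted p = 0.0202) lost its call without that array (-0.20, adjusted p = 0.0968), without compound A array 1 (adjusted p = 0.0577) and with either control as a covariate. The Acadm call also ended in a fit of the 2 compounds alone (adjusted p = 0.124). Cpt1a, which brings fatty acids into mitochondria, read 6.57, 6.68 and 6.83, against 7.73, 6.89 and 6.82, a difference of -0.45 (95% interval -1.07 to 0.16, adjusted p = 0.207). Cycs, cytochrome c, differed by 0.01 (95% interval -0.20 to 0.23, adjusted p = 0.939), and 1 of its 3 tested probe sets passed downward with the opposite sign. Among 11 ERR family members and coregulators 4 rose (36.4%), 3 fell (27.3%) and 4 did not pass, against 24.5% up and 27.6% down over all genes. Pprc1, a PGC-1 relative, rose 1.75-fold and Gabpa, a factor of mitochondrial promoters, 1.57-fold. Pprc1 lost its call in the actin fit (0.30, adjusted p = 0.376), and the list held 3 rises and 0 falls in each of the covariate fits. Ppargc1b, encoding the coactivator PGC-1β, read 5.21, 6.79 and 6.29 with XCT790, against 7.46, 7.12 and 7.11 with compound A, and fell 2.20-fold. Its call ended with either control as a covariate (adjusted p = 0.0722 and 0.213) and in a fit of the 2 compounds alone.

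Other stress programmes were mixed. Of 16 heat shock genes 5 rose (31.2%), 3 fell (18.8%) and 8 did not pass, against 24.5% up and 27.6% down over all genes. The inducible HSP70 genes rose most. Hspa1b read 13.41, 11.70 and 12.59 with XCT790, against 7.18, 10.47 and 10.08 with compound A, and Hspa1a 10.28, 7.83 and 8.97, against 3.13, 7.16 and 6.90. XCT790 lay above compound A on every array, and compound A array 1 was far below its replicates. Without it the rises of 3.33 and 3.30 became 2.30 and 2.00. Hspb1, the small heat shock protein HSP27, read 8.71, 4.08 and 5.17 with XCT790, against 2.46, 3.52 and 3.25 with compound A, and its difference of 2.91 was 1.54 without XCT790 array 1. Counts of heat shock rises were 2 with 18S rRNA and 0 with actin 3' minus 5' as a covariate. In the actin fit Hspa1b was 2.30 (adjusted p = 0.271) and Hspa1a 1.01 (adjusted p = 0.674). Hspb1 missed the threshold in the 18S fit too (adjusted p = 0.0849). Hspa1a and Hspb1 also missed it in a fit of the 2 compounds alone (adjusted p = 0.0817 and 0.103). In the unfolded protein response 6 of 26 genes rose (23.1%) and 8 fell (30.8%), near the 24.5% and 27.6% over all genes. Of these, Herpud1, of endoplasmic reticulum degradation, rose 3.50-fold and Sdf2l1, a luminal cochaperone, fell 2.20-fold. There were 3 rises and 5 falls in the 18S fit, and 5 rises and 0 falls in the actin fit, where Sdf2l1 differed by -0.83 (adjusted p = 0.135). Of 23 NRF2 targets 5 rose (21.7%) and 9 fell (39.1%), with Nfe2l2, the NRF2 gene, up 1.96-fold and Gstp1, a glutathione transferase, down 2.26-fold. In each covariate fit 6 fell, while 4 rose in the 18S fit and 1 in the actin fit. Metallothionein and zinc transport genes rose in 8 of 11, and Mtf1, the metal sensor, fell by 0.35 on the log2 scale (named after its value was seen). Mt1, metallothionein 1, read 6.08, 5.34 and 4.61 with XCT790, against 2.92, 2.23 and 2.77 with compound A, and was not called with actin 3' minus 5' as a covariate (1.51, adjusted p = 0.433). Under the covariates 3 and 2 genes of that list rose.

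The p53 list and the AMPK and mTORC1 list rose in part, and the BCL2 family moved both ways. Of 18 p53 targets 8 rose and the other 10 did not pass, with 4 rises under either covariate. Bbc3, the BH3-only protein PUMA, read 7.82, 7.80 and 7.99 with XCT790, against 5.97, 6.03 and 6.06 with compound A, and Bcl2l11, the BH3-only protein BIM, read 12.74, 12.62 and 12.60, against 11.66, 11.19 and 11.02. The compounds did not overlap in either gene, and the rises were 3.60-fold and 2.58-fold. Of 9 BCL2 family genes 2 rose (22.2%), 3 fell (33.3%) and 4 did not pass, against 24.5% up and 27.6% down over all genes. The falls were Bak1 (1.73-fold) and Bid (1.72-fold), which also favour cell death, and Mcl1 (-0.22, named after its value was seen). That list held 2 rises and 2 falls in each covariate fit. Trp53inp1 and Mdm2 of the p53 list rose 1.76-fold and 1.49-fold, Mdm2 missing the threshold in the actin fit (0.58, adjusted p = 0.0970). Among 15 genes that control AMPK and mTORC1, 8 rose and 2 fell. Flcn, folliculin, read 11.50, 10.70 and 11.16 with XCT790, against 8.86 to 9.03 with compound A, and Ddit4, an inhibitor of mTORC1 that is also a HIF and ATF4 target, 11.46, 11.29 and 11.52, against 9.38, 9.21 and 9.24. They rose 4.45-fold and 4.44-fold. The 2 falls, Tfeb (-0.34) and Prkag1 (-0.25), were small and were named after their values were seen. Neither covariate fit held a fall, and the rises were 8 in the 18S fit and 5 in the actin fit.

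The interferon programme was lower with XCT790. Of 30 interferon-stimulated genes 24 (80.0%) fell and the other 6 did not pass, with a median of -1.50. Irgm1, a GTPase of defence against intracellular pathogens, read 9.50, 10.04 and 10.06 with XCT790, against 12.47, 12.25 and 12.31 with compound A. Iigp1, of the same family, read 9.23, 9.56 and 9.56, against 12.37, 12.05 and 12.26. Gbp6, a guanylate-binding protein, read 8.29, 8.70 and 8.71, against 10.67, 10.71 and 10.84. The compounds were apart by 5.56-fold (adjusted p = 8.18e-09), 6.86-fold (adjusted p = 4.83e-08) and 4.52-fold (adjusted p = 1.32e-08). In wild-type resting cells, across the dap split, these genes read 9.83 to 9.99, 9.23 to 9.62 and 8.81 to 8.89, near the XCT790 levels. That was not so of Psmb8, an immunoproteasome subunit, at 11.32 to 11.40 with XCT790 and 12.85 to 12.98 with compound A, against 12.79 to 12.81 in wild-type resting cells. It fell 2.95-fold with XCT790 (adjusted p = 6.24e-09). The 6 that did not pass were Rsad2, Oasl2, Oas2, Oas3, Ifih1 and Isg20, antiviral genes with differences from 0.00 to -0.66. Other antiviral genes, Ifit1, Ifit3 and Oas1a, were among the 24 that fell (all named after their values were seen). The count of falls was 16 with 18S rRNA and 12 with actin 3' minus 5' as a covariate.

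The core of the interferon-stimulated response element was searched on either strand as GAAA, NN and GAAA in a row, where N is any base. It occurred within 250 bases before the start of 11 of 24 members with a sequence (45.8%), against 3.04% of all genes. Irgm1 and Socs1, an interferon-induced inhibitor of JAK kinases, are shown because each holds 2 matches that overlap, in capitals.
Irgm1, chr11:48871421-48871620, minus strand: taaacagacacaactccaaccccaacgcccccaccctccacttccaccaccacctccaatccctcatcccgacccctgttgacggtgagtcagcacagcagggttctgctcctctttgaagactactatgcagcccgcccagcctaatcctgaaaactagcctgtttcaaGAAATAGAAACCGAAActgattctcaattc
Socs1, chr16:10785537-10785736, minus strand: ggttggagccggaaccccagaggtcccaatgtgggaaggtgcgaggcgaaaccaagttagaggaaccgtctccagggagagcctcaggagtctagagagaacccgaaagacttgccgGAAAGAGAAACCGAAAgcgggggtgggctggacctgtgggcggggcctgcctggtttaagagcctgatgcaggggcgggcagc

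Cytokine genes fell in part, Ifng most, and T helper factors moved both ways. Of 22 cytokines 9 fell, 2 rose and 11 did not pass, with a median of -0.62. Besides Ifng, the Th2 cytokine genes Il4 and Il13 fell as well. Il4 read 2.77, 2.81 and 2.81 with XCT790, against 5.04, 4.92 and 4.79 with compound A, at least 1.89-fold less, and Il13 fell at least 1.53-fold. Both were below log2 4 with XCT790, and both calls ended with actin 3' minus 5' as a covariate (adjusted p = 0.404 and 0.111). The rises were Tnfsf11, encoding RANKL, at 3.99-fold, and Tnfsf8, the CD30 ligand, at 1.16 on the log2 scale (adjusted p = 0.0416), the second named after its value was seen. The 18S fit held 5 falls among the cytokines and the actin fit 2, with 2 rises in each. The list held 1 rise in place of 2 without any single XCT790 array and without compound A array 2 or 3. Il2, the T cell growth factor, read 10.60, 11.05 and 11.15 with XCT790, against 9.80, 10.59 and 10.58 with compound A. The 3 XCT790 arrays were the higher, but the difference of 0.61 (95% interval 0.01 to 1.20) missed the threshold (adjusted p = 0.0831). Il2 passed with 18S rRNA as a covariate (1.26, adjusted p = 0.0251), with a replicate block (0.61, adjusted p = 0.0326) and with array weights (0.62, adjusted p = 0.000194). Of 10 chemokines 2 fell (20.0%), Ccl22 and Cxcl9, and 1 rose (10.0%), against 27.6% and 24.5% over all genes. The rise was Ccl5, which read 11.11, 9.48 and 10.16 with XCT790, against 8.25, 6.97 and 7.55 with compound A (6.33-fold). Its call ended with either covariate (adjusted p = 0.0736 and 0.0801), where 0 chemokines rose and 3 and 2 fell. Among 15 T helper factors 4 fell and 4 rose (26.7% each), near the 27.6% and 24.5% over all genes, with a median of 0.23. Eomes, related to T-bet, read 5.17, 6.65 and 6.80, against 8.81, 8.71 and 8.70, and fell 5.78-fold, and Gata3, of Th2 cells, fell 2.46-fold. Rora, of the Th17 lineage, read 9.04, 8.57 and 8.71 with XCT790, against 6.00, 5.33 and 5.89 with compound A, and rose 8.18-fold. There were 2 rises and 5 falls in the 18S fit and 2 of each in the actin fit, where Eomes missed the threshold (-2.07, adjusted p = 0.105). The aryl hydrocarbon receptor gene Ahr rose 2.14-fold, but the other 2 tested genes of its list, Tiparp and Lpxn, did not pass (adjusted p = 0.0818 and 0.140). In the actin fit Ahr missed the threshold (0.93, adjusted p = 0.140) and Lpxn passed it (1.08, adjusted p = 0.0464), and Tiparp passed without XCT790 array 2 (1.03, adjusted p = 0.0291).

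Feedback genes of cytokine signalling moved in both directions, and of its receptors more fell than rose. Among 11 SOCS and Pim genes 5 fell and 5 rose. Socs1 read 6.49, 6.27 and 6.25 with XCT790, against 8.34, 8.54 and 8.80 with compound A, and fell 4.67-fold. Socs3, a related feedback inhibitor of cytokine signalling, read 6.72, 7.63 and 7.65, against 9.22, 9.65 and 9.64, and fell 4.49-fold. Socs2 and Cish, targets of STAT5, fell 2.37-fold and 2.05-fold, with Pim2, and the rises were Bcl6, Socs6, Pim3, Socs5 and Pim1, at 1.69, 1.00, 0.66, 0.62 and 0.35 on the log2 scale (these and Pim2, at -1.22, named after their values were seen). Of 21 cytokine receptors 10 fell, 2 rose and 9 did not pass. Il2rb, the β chain of the IL-2 receptor, read 8.84, 8.96 and 8.92 with XCT790, against 10.13, 10.23 and 10.46 with compound A, and Il21r 5.67, 6.50 and 6.20, against 7.72, 7.70 and 7.64. They fell 2.58-fold and 2.96-fold. Il2ra, the α chain, overlapped between the compounds and differed by -0.24 (95% interval -0.73 to 0.26, adjusted p = 0.420). Of 11 cytotoxic granule genes 5 fell and the other 6 did not pass. Gzmb, granzyme B, read 8.40, 7.93 and 7.78, against 10.57, 9.65 and 9.88, and fell 3.98-fold. The 18S fit held 5 falls and 0 rises among cytokine receptors, 4 and 1 among SOCS and Pim genes and 4 and 0 among granule genes, and Cish missed the threshold there (adjusted p = 0.0593). In the actin fit few of these calls were left, 1 fall and 0 rises among cytokine receptors, 1 of each among SOCS and Pim genes and 1 of each among granule genes. Calls over all genes were also fewer in that fit, with 637 falls in place of 1899 and 668 rises in place of 1686. Socs1, Socs2, Socs3, Il2rb, Il21r and Gzmb all missed the threshold there (adjusted p = 0.369, 0.126, 0.0807, 0.0608, 0.0812 and 0.261).

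**Figure D3:**
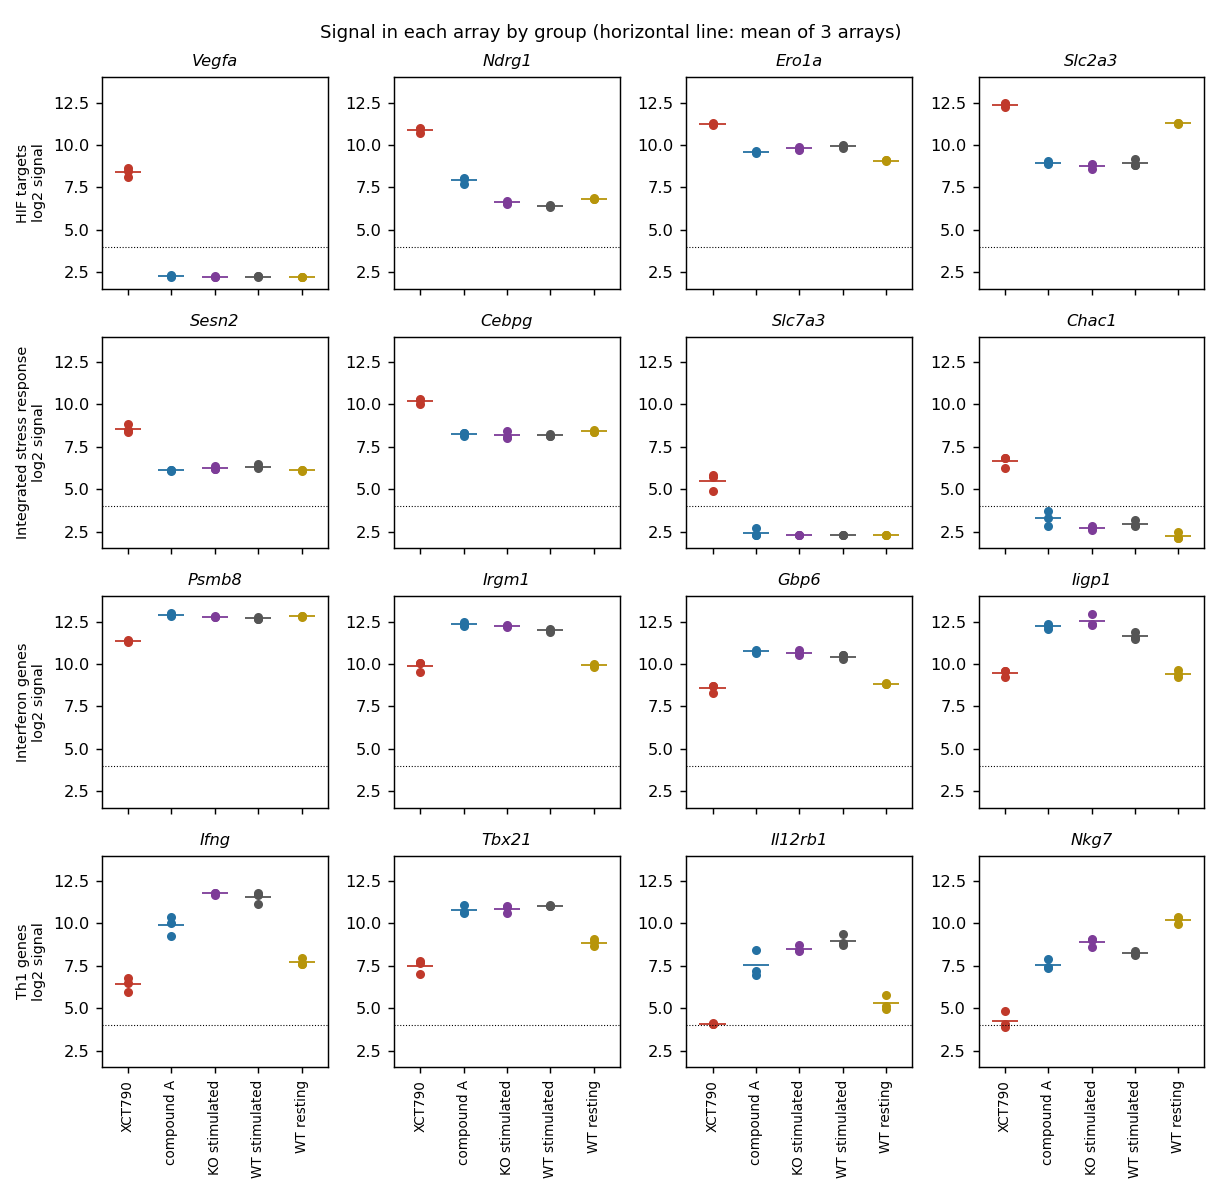
Log2 signal of each array (points) and the mean of 3 arrays (line) for 16 genes in 5 groups, in rows for HIF targets, the integrated stress response, interferon genes and Th1 genes, with a dotted line at log2 4. XCT790 stands apart from compound A in all 16, which were chosen by this difference. Irgm1, Gbp6 and Iigp1 with XCT790 lie near their wild-type resting level, a comparison that crosses the dap split.

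T cell identity and receptor signalling transcripts were modestly lower with XCT790. Of 9 identity genes 7 fell and 2 did not pass, with a median of -0.76, and of 21 T cell receptor signalling genes 13 fell, 3 rose and 5 did not pass. Cd3g, a chain of the CD3 complex, read 10.80, 11.14 and 10.75 with XCT790, against 12.34, 12.38 and 12.28 with compound A, and fell 2.70-fold (adjusted p = 3.17e-07). Cd4 read 8.30, 8.59 and 8.82, against 9.58, 9.70 and 9.77, and fell 2.16-fold. Cd247, the ζ chain, fell 2.33-fold, and Cd3e 1.70-fold. In the actin fit 1 identity gene fell and 2 rose, while 7 fell in the 18S fit. Receptor signalling held 1 fall and 2 rises in the actin fit, with a median of -0.12 in place of -0.37, and 11 falls and 0 rises in the 18S fit. Cd4, Cd3e and Cd247 missed the threshold in the actin fit (adjusted p = 0.107, 0.0830 and 0.0868). Homing genes moved both ways, with 5 rises and 5 falls among 21 (23.8% each), near the 24.5% and 27.6% over all genes. The counts were 3 and 7 in the 18S fit and 3 of each in the actin fit. Cxcr4, the receptor for CXCL12, read 11.88, 11.14 and 11.76 with XCT790, against 8.43, 8.38 and 8.50 with compound A, and rose 8.90-fold (adjusted p = 5.91e-09). Its wild-type resting level, across the dap split, was 11.58 to 11.65. Itgb7, an integrin for the gut, Selplg, the ligand of P-selectin, and S1pr4, a sphingosine phosphate receptor, fell 3.70-fold, 2.86-fold and 2.68-fold. Among 24 genes of quiescent or naive cells 10 rose and 5 fell, Klf7 and Foxo3 rising 2.14-fold and 1.89-fold and Slfn1 falling 2.98-fold. That list held 8 rises and 3 falls in the 18S fit and 7 and 1 in the actin fit, where Foxo3 missed the threshold (0.58, adjusted p = 0.0772).

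Activation genes did not move as a block. Of 24 activation and costimulation genes 5 rose (20.8%), 3 fell (12.5%) and 16 did not pass, with a median of 0.01. Over all genes 24.5% rose and 27.6% fell. Ctla4, an inhibitory receptor, rose 2.01-fold and Cd200 2.54-fold, whereas Lag3 and Irf8, an interferon regulatory factor, fell, Irf8 by 5.68-fold. The list held 2 rises and 4 falls in the 18S fit and 4 and 2 in the actin fit. In the NF-κB list 8 of 17 rose and 3 fell, with 5 and 2 in the 18S fit and 6 and 2 in the actin fit. Tnfaip3, the inhibitor A20, read 7.56, 6.93 and 6.79 with XCT790, against 4.59, 4.55 and 4.69 with compound A, and rose 5.60-fold. Bcl3, an atypical IκB protein, read 6.57, 7.59 and 7.62, against 8.90, 9.61 and 9.84, and fell 4.56-fold, and Icam1 fell 2.24-fold. Among 26 AP-1, Egr and Nr4a genes 6 rose (23.1%) and 2 fell (7.69%), the rises near and the falls below the shares over all genes. Mafg and Dusp1 rose 2.47-fold and 2.49-fold, and counts were 5 and 3 in the 18S fit and 5 and 0 in the actin fit. Among 12 NFAT and calcium genes 2 rose (16.7%) and 4 fell (33.3%), against 24.5% and 27.6% over all genes. Atp2a3, a calcium pump, fell 2.63-fold and Nfat5, the osmotic stress factor, rose 1.67-fold. There was 1 rise and there were 3 falls in the 18S fit, and 0 of either in the actin fit, with Atp2a3 at -0.61 (adjusted p = 0.162) and Nfat5 at 0.13 (adjusted p = 0.687). Of 12 PPAR targets 4 fell (33.3%) and 1 rose (8.33%), Rxrb (0.32, adjusted p = 0.0468), which was named after its value was seen. The PPAR list held 0 rises without XCT790 array 3, and 0 rises and 2 falls in each covariate fit.

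Machinery for replication and protein turnover was lower with XCT790, while most ribosomal protein genes did not pass. Of 33 DNA replication genes 22 fell, 1 rose and 10 did not pass, with a median of -0.65. Mcm2, of the replicative helicase, read 8.49, 8.67 and 8.75 with XCT790, against 10.29, 10.04 and 9.95 with compound A, and Mcm4 read 9.66, 9.45 and 9.58, against 10.98, 10.58 and 10.56. They fell 2.74-fold and 2.21-fold without overlap. The rise was Dbf4 (0.38), an activator of the CDC7 kinase named after its value was seen. Only 2 of 22 mitosis genes fell, Top2a and Ndc80, and the others did not pass. Neither call held with 18S rRNA or actin 3' minus 5' as a covariate, and leaving out single arrays left between 0 and 3 falls in the list, with 0 without XCT790 array 3 or compound A array 1. The mitosis list averaged log2 3.99 with XCT790 and 4.31 with compound A, near the floor of log2 4, against 6.48 in wild-type resting cells. A mitosis gene that did not pass is therefore not shown to be unchanged. Of 34 proteasome genes 30 (88.2%) fell and the other 4 did not pass, with a median of -0.45, Psmb2 falling 2.10-fold and Psmb5 1.57-fold. Counts of falls were 10 and 20 for replication and proteasome with 18S rRNA as a covariate and 14 and 17 with actin 3' minus 5'. Of 41 cytosolic ribosomal protein genes 2 fell, Rps25 and Rps6 (1.44-fold and 1.39-fold), and 39 did not pass, with a median of 0.02. Rps25 missed the threshold in the 18S fit (-0.36) and Rps6 in the actin fit (-0.23, adjusted p = 0.378). Ribosome biogenesis fell in 17 of 45 genes and rose in 4, led by Noc4l at 2.38-fold down and Ddx56 at 1.79-fold down, with 12 falls and 2 rises in the 18S fit and 8 and 0 in the actin fit. Of 8 subunits of the TRiC chaperonin 2 fell (25.0%), near the 27.6% over all genes. These were Cct8 and Cct5, lower by 1.19-fold and 1.18-fold, and both calls ended in the 18S fit (adjusted p = 0.365 and 0.284), in the actin fit (adjusted p = 0.0868 and 0.0694) and without XCT790 array 1 or compound A array 2.

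Growth control showed opposed movements. Cdkn1b, the cell cycle inhibitor p27, read 11.35, 11.05 and 11.29 with XCT790, against 10.01, 9.76 and 9.93 with compound A, and rose 2.51-fold, while Cdk4 and Ccnd2 fell 1.69-fold and 1.46-fold. Of 17 G1 genes 5 rose and 5 fell (29.4% each), against 24.5% and 27.6% over all genes. The G1 counts were 4 and 2 in the 18S fit and 2 of each in the actin fit, where Ccnd2 missed the threshold (-0.47). In the Myc network Mxi1 and Mnt, antagonists of MYC, rose 4.29-fold and 1.82-fold, and Myc read 11.09, 10.98 and 10.98, against 11.82, 11.54 and 11.48, and fell 1.51-fold. Its call ended with actin 3' minus 5' as a covariate (-0.53, adjusted p = 0.119). The Myc list held 3 rises and 2 falls in the 18S fit and 2 and 0 in the actin fit. Of 14 genes of pyrimidine and deoxynucleotide supply 7 fell, Dut, a dUTPase, by 2.82-fold and Dhodh, which lies in the mitochondrial membrane, by 1.92-fold. That count was 4 without XCT790 array 1 and 4 in each covariate fit. Of 10 purine synthesis genes 4 fell and 1 rose, the fall of Prps2 reaching 2.56-fold, and Impdh1 rising by 0.31 (adjusted p = 0.0480), named after its value was seen. The purine list held 2 falls in the 18S fit and 3 in the actin fit, where Prps2 missed the threshold (-0.92, adjusted p = 0.132). It held 0 rises in both of these and without XCT790 array 3 or compound A array 1 or 2. Among 7 polyamine genes 3 rose (42.9%) and 2 fell (28.6%), led by Smox, spermine oxidase, at 3.85-fold up. The 18S fit held 3 rises and 0 falls there and the actin fit 1 and 0, and Smox missed the threshold in the actin fit (1.09, adjusted p = 0.126).

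**Figure D4:**
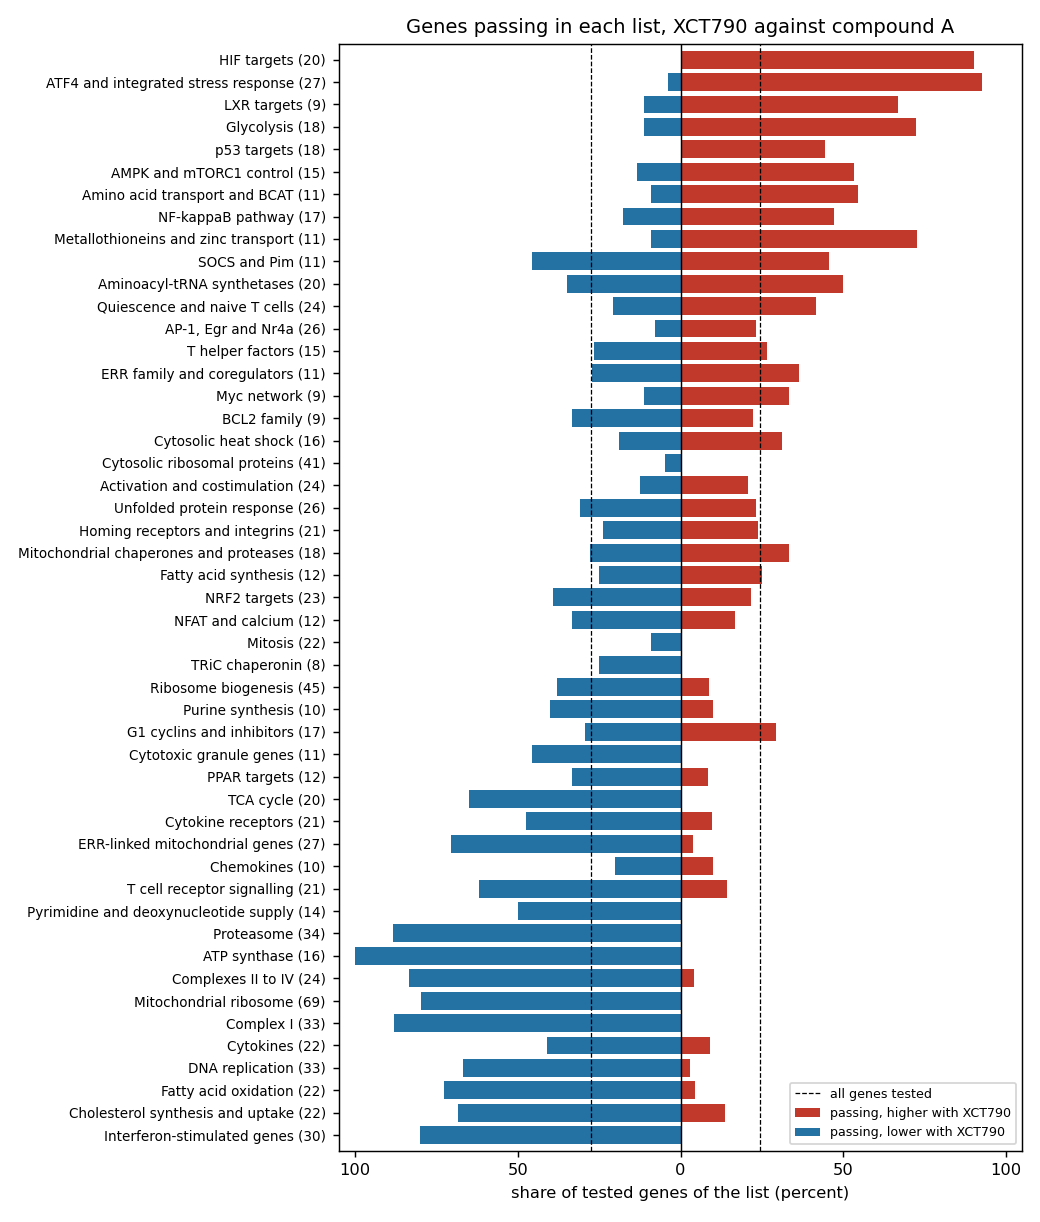
Share of the tested genes of each list (number in brackets) that passed and were higher with XCT790 (red, to the right) or lower (blue, to the left) than with compound A, with dashed lines at the shares over all genes, 24.5% and 27.6%, and lists ordered by their median difference. HIF targets and the ATF4 list reach 90.0% and 92.6% to the right, and ATP synthase, proteasome and complex I reach 100%, 88.2% and 87.9% to the left.

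Each compound was also set beside wild-type stimulated cells, to place the differences. These 2 comparisons share their wild-type arrays and both cross the dap split, so their values are given side by side and compound and split cannot be told apart in either. With XCT790 4526 of 6873 genes (65.9%) passed against wild-type stimulated cells, 1450 of them (21.1%) at least 2-fold, and with compound A 2271 (33.0%) and 258 (3.75%). The median size of the difference was 0.49 with XCT790 and 0.23 with compound A. The median differences of the HIF list were 1.76 with XCT790 and -0.11 with compound A, and those of the ATF4 list 2.01 and 0.00. Those of LXR targets were 1.54 and -0.03, and of glycolysis 0.81 and -0.30. In these lists XCT790 lay above wild-type stimulated cells and compound A near or below them. Interferon-stimulated genes had medians of -1.50 with XCT790, with 22 of 30 lower, and 0.03 with compound A, with 5 higher. Over all genes 36.9% were lower with XCT790 than in wild-type stimulated cells and 14.4% were higher with compound A. Complex I genes had medians of -0.81 and -0.12, fatty acid oxidation genes of -0.59 and 0.01 and proteasome genes of -0.58 and -0.13. The following lists had medians below 0 with both compounds. DNA replication genes had medians of -1.50 with XCT790 and -0.72 with compound A, mitochondrial ribosome genes of -0.92 and -0.35, ribosome biogenesis genes of -0.50 and -0.42, cholesterol synthesis genes of -1.19 and -0.35 and cytokines of -1.37 and -0.79.

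Single genes show the same range of cases. Vegfa differed from wild-type stimulated cells by 6.17 with XCT790 and by 0.05 with compound A, whereas Ak4 differed by 2.39 with XCT790 and by -2.65 with compound A (adjusted p = 1.37e-06 and 5.04e-06). Ifng was lower with both, by -5.12 with XCT790 and -1.66 with compound A (adjusted p = 1.76e-08 and 0.00181). Crabp2 was lower with both too, by -7.69 and -4.32. Cpt1a was higher with both, by 1.97 with XCT790 and 2.43 with compound A (adjusted p = 2.84e-05 and 3.32e-05). Hspa1a and Hspa1b were also higher with both, by 6.60 and 6.62 with XCT790 and by 3.30 and 3.30 with compound A. Cxcr4 was 4.42 higher with XCT790 and 1.26 with compound A, and Ndrg1 4.52 and 1.56. S1pr4 moved in opposite directions, -0.49 with XCT790 and 0.93 with compound A (adjusted p = 0.00512 and 0.000147). Slc2a1 did so too, at 1.86 and -0.51 (adjusted p = 1.95e-07 and 0.0237), as did Itgb7, at -1.24 and 0.65 (adjusted p = 2.49e-05 and 0.0113).

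**Figure D5:**
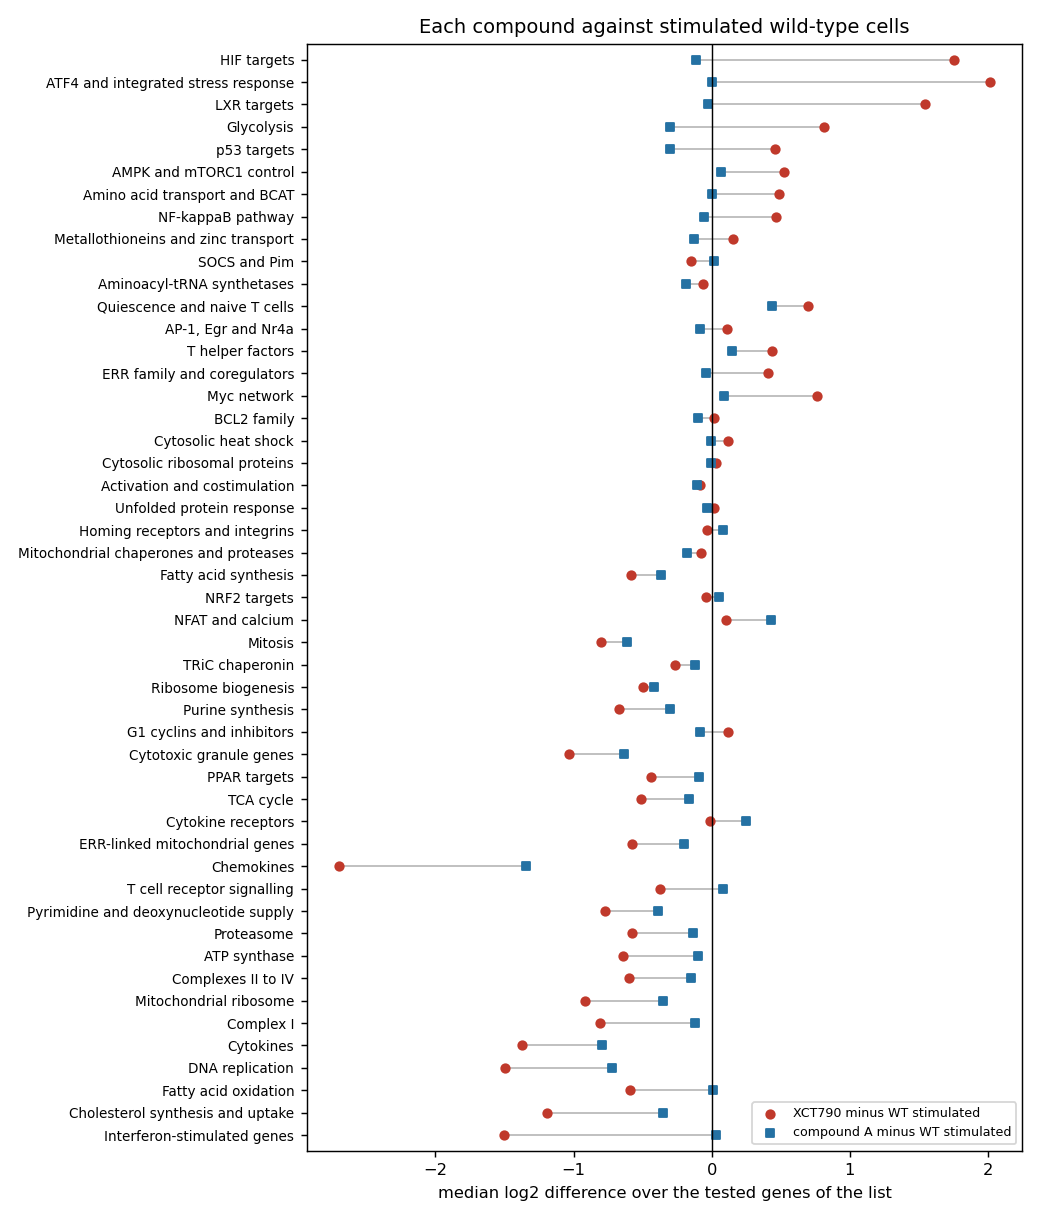
Median log2 difference from wild-type stimulated cells over the tested genes of each list, for XCT790 (circles) and compound A (squares), both against the same 3 wild-type arrays. HIF targets stand at 1.76 and -0.11 and interferon-stimulated genes at -1.50 and 0.03, while for cytokines both compounds lie below 0, at -1.37 and -0.79.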

How the data were processed

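RNA of CD4+ T cells was hybridised to Affymetrix Mouse Genome 430A 2.0 arrays, 18 in all. The deposited values are log2 signals that the authors made with GCRMA, per the submitters' processing notes, with no version given in the sources used here. All arrays hold the same set of values (log2 1.83 to 15.4, median 3.55), so a level is relative to the other probe sets of its array, and the number of arrays limits precision. Of 22690 probe sets, 20380 name a single gene in the platform annotation (12393 genes), and the rest were set aside as 64 controls, 1555 with no gene name and 691 with more than 1. Probe sets under log2 4 on all but 2 or fewer arrays were dropped. Groups came from the titles.

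limma 3.58.1 (R 4.3.3) fitted 6 group means to all 18 arrays with no block (12 residual and 2.33 prior degrees of freedom). Tests were two-sided, with Benjamini-Hochberg adjustment over 10691 probe sets and a threshold of 0.05, and intervals are 95%. P-values measure the spread between arrays. A gene is read by the brightest of its tested probe sets (mean of all 18 arrays). The fit was tested on simulated data. Named genes are Esrra, the 14 largest rises and falls among passing genes without overlap and with a higher mean of at least log2 4, up to 4 members of smallest adjusted p in each list, and Acadm, Cpt1a, Cycs, Ifng, Il2, Il2ra and Slc2a1. The comparison, the gene lists and the named genes were chosen with earlier results of these data known. A list is described by its counts and median beside those of all genes, with no test of the list. Covariates (18S rRNA signal, and actin 3' minus 5' signal) were added after seeing the data. Promoter sequences are RefSeq's, build GRCm38.p6. Figures were drawn with matplotlib 3.10.9 (Python 3.11.15).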

Additional observations from a re-analysis of the deposited data

How the results depend on the processing

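Counted by gene, 3617 genes passed between XCT790 and compound A (1707 up) when 1 probe set per gene entered the adjustment, and 3609 (1694 up) with the mean of a gene's probe sets, where the probe sets gave 5427 (2668 up). Against wild-type stimulated cells these settings gave 4534 and 4544 genes for XCT790 and 2283 and 2382 for compound A, where probe sets gave 7124 and 3636. With at least 2-fold required, 1192 probe sets (540 up, 652 down) and 764 genes (311 up, 453 down) passed between the compounds, with 2479 probe sets and 1450 genes for XCT790 and 599 and 258 for compound A against wild-type stimulated cells. With 18S rRNA as a covariate 3324 probe sets (1548 up, 1776 down) and 2238 genes (996 up, 1242 down) passed between the compounds, and with actin 3' minus 5' 1929 (1046 up, 883 down) and 1305 (668 up, 637 down). The share of rises among the probe sets passing so changed with actin, and the cause was not tested. Array weights gave 6269 probe sets and 4010 genes for compound A against wild-type stimulated cells. Leaving out 1 array gave 4693 to 5374 probe sets (2323 to 2627 up, 2370 to 2747 down) and 3137 to 3555 genes between the compounds. Correlations of deviations between XCT790 and compound A arrays were 0.111, 0.0067 and 0.183 for equal replicate numbers and -0.222 to 0.145 for unequal ones. These values do not settle whether replicate numbers pair the arrays. A replicate block gave 5601 probe sets and 3711 genes, against 5427 and 3585 without it. Of 248 named genes, 221 kept their direction and side of the threshold with 18S rRNA, 181 with actin 3' minus 5', 236 with array weights and 235 where the fit held no other group. The sign turned in 2 genes, Ighm with the mean of its probe sets (-0.046) and Psat1 with actin 3' minus 5' (-0.12), and the cause was not tested. Fold changes of dim genes are limited by the floor at log2 4.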
